A study of Mus musculus with 32 samples.

Results

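The genes described here are 51 genes of the extracellular matrix and of the fibroblasts, pericytes and myofibroblasts that make much of it. They were taken by name from a list of mouse symbols, by a rule that does not read their values but with earlier results of these data known, and each symbol matched 1 of the 53700 genes in the table of counts. RNA was taken from whole kidneys of 32 male C57BL/6 mice of the iKspCre-*Pkd1*del line, which carries a Cre driven in kidney tubules and activated by tamoxifen, with loxP sites around exons 2 to 11 of *Pkd1*. The wildtype group (n = 8, age 109 days) consisted of mice of this line that were not given tamoxifen. The PKD group (n = 12, age 95 days) received tamoxifen (150 mg/kg) and developed cysts, and the PKD + Salsalate group (n = 12, age 95 days) received the same tamoxifen and, in the last 2 weeks, chow with 2.5 g/kg salsalate, a prodrug of salicylate. Age and tamoxifen therefore differed together with the *Pkd1* deletion and cannot be told apart from it. The study also kept PKD mice with a mild cystic phenotype for these groups, so the values stand for mild disease.

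The matrix of the kidney has a basement membrane under the tubular, glomerular and vascular cells, built on networks of type IV collagen and laminin, and an interstitial matrix of fibrillar collagens, fibronectin and proteoglycans between the tubules. In fibrosis, which accompanies cyst growth, interstitial fibroblasts and pericytes turn into myofibroblasts that contain smooth muscle actin and lay down collagens type I and type III, and the TGF-beta ligands are the best known signal for this. Lysyl oxidases cross-link the collagen and elastin, while metalloproteinases and their tissue inhibitors set how fast the matrix is taken apart.

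Each kidney had from 11193136 to 109807664 counts on genes. Levels are given as CPM, read counts scaled by the total of the library and by TMM factors (trimmed mean of M-values). All kidneys held the RNA expected of the labelled tissue: the summed CPM of 10 proximal tubule markers was between 15528 and 31715. PKD replicate 10 stood apart, with 4265 CPM for 10 hepatocyte markers against 135 to 319 CPM in the other kidneys. The wildtype group held 5 libraries with an R at the end of the name (R-named below) and 3 without. No PKD library is R-named, and what the letter stands for is not given in the sources used here. Each comparison with wildtype was therefore also made within each of these wildtype sets. *Pkd1* itself was counted at 68.4 ± 10.8 CPM (SD, n = 8) in wildtype, 91.8 ± 15.1 CPM in PKD and 92.4 ± 15.1 CPM in PKD + Salsalate kidneys (SD, n = 12 each). Its count covers all exons, and so does not check the deletion of exons 2 to 11.

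To compare levels between genes, the mean CPM was divided by the length of the annotated exons in kilobases (CPM per kb). This length merges the exons of all annotated transcripts of a gene. It can exceed the length of the transcript made, so the order of genes is approximate. *Timp3*, an inhibitor of metalloproteinases that is bound to the matrix, had the highest level of the members in every group, with 217 CPM per kb in wildtype and 225 CPM per kb in PKD kidneys. It was followed in PKD kidneys by *Sparc*, a collagen-binding glycoprotein, with 148.2 CPM per kb, and by *Col4a1* with 65.8 CPM per kb. *Vcan*, the large proteoglycan versican, had the lowest level in PKD kidneys with 0.171 CPM per kb. In wildtype kidneys the basement membrane chain *Col4a1* (31.3 CPM per kb) stood well above the interstitial chains *Col1a1* (7.07 CPM per kb) and *Col3a1* (5.05 CPM per kb). In PKD kidneys these were at 35.4 and 25.0 CPM per kb, so the ratio of *Col4a1* to each interstitial chain was smaller there.

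**Figure D1:**
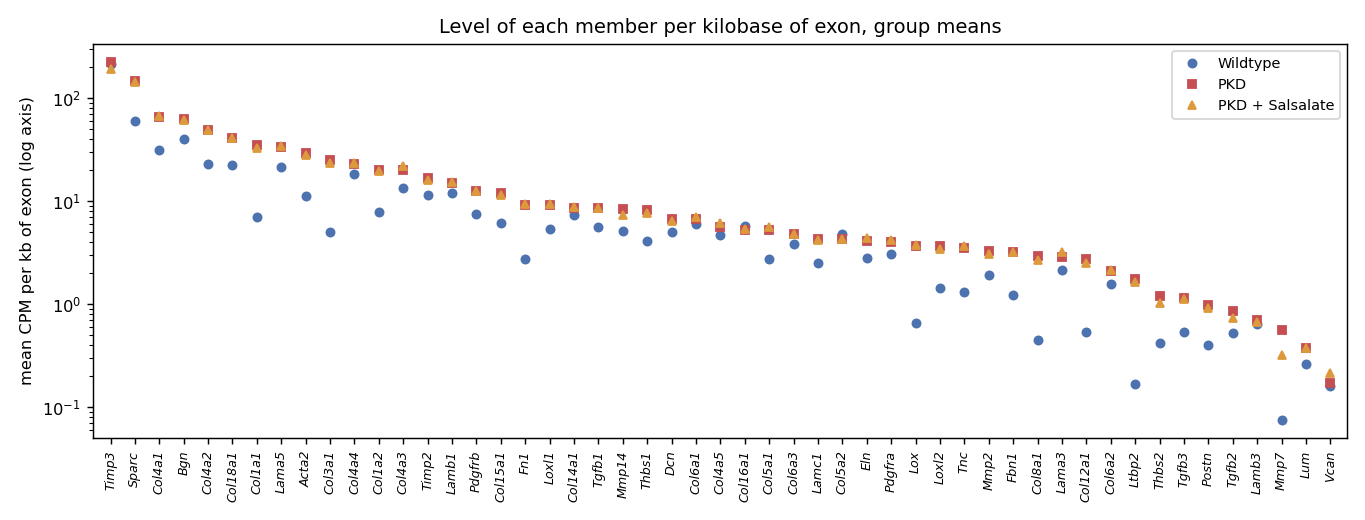
Mean level of the 51 members per kilobase of exon (CPM per kb, log axis), in order of the PKD mean; circles are wildtype (n = 8), squares PKD (n = 12) and triangles PKD + Salsalate (n = 12). The squares and triangles nearly coincide for most members, though not for *Mmp7*, while most circles lie lower, most of all for *Ltbp2*, *Mmp7*, *Col8a1* and *Lox*.

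Of the 51 members, 50 passed the filter on low counts and were tested. In PKD against wildtype kidneys, 43 of the 50 were higher and 0 were lower at an adjusted p under 0.05 by edgeR's quasi-likelihood test, where 24.1% of all 13961 genes tested were higher and 25.0% lower. The tested members therefore lay on the higher side far more often than the genes as a whole, of which 49.1% were called in either direction. Their median log2 fold change was 0.75, and the median of all genes tested was -0.01. For 23 of all 51 members every PKD kidney lay above every wildtype kidney, and these include *Mmp7*, which did not pass the filter. Among all genes tested this was so for 5.21%. By DESeq2's Wald test 43 were higher and 0 lower as well. In PKD + Salsalate against PKD kidneys 0 of 50 were called by either tool, and 0.580% of all genes were called.

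**Figure D2:**
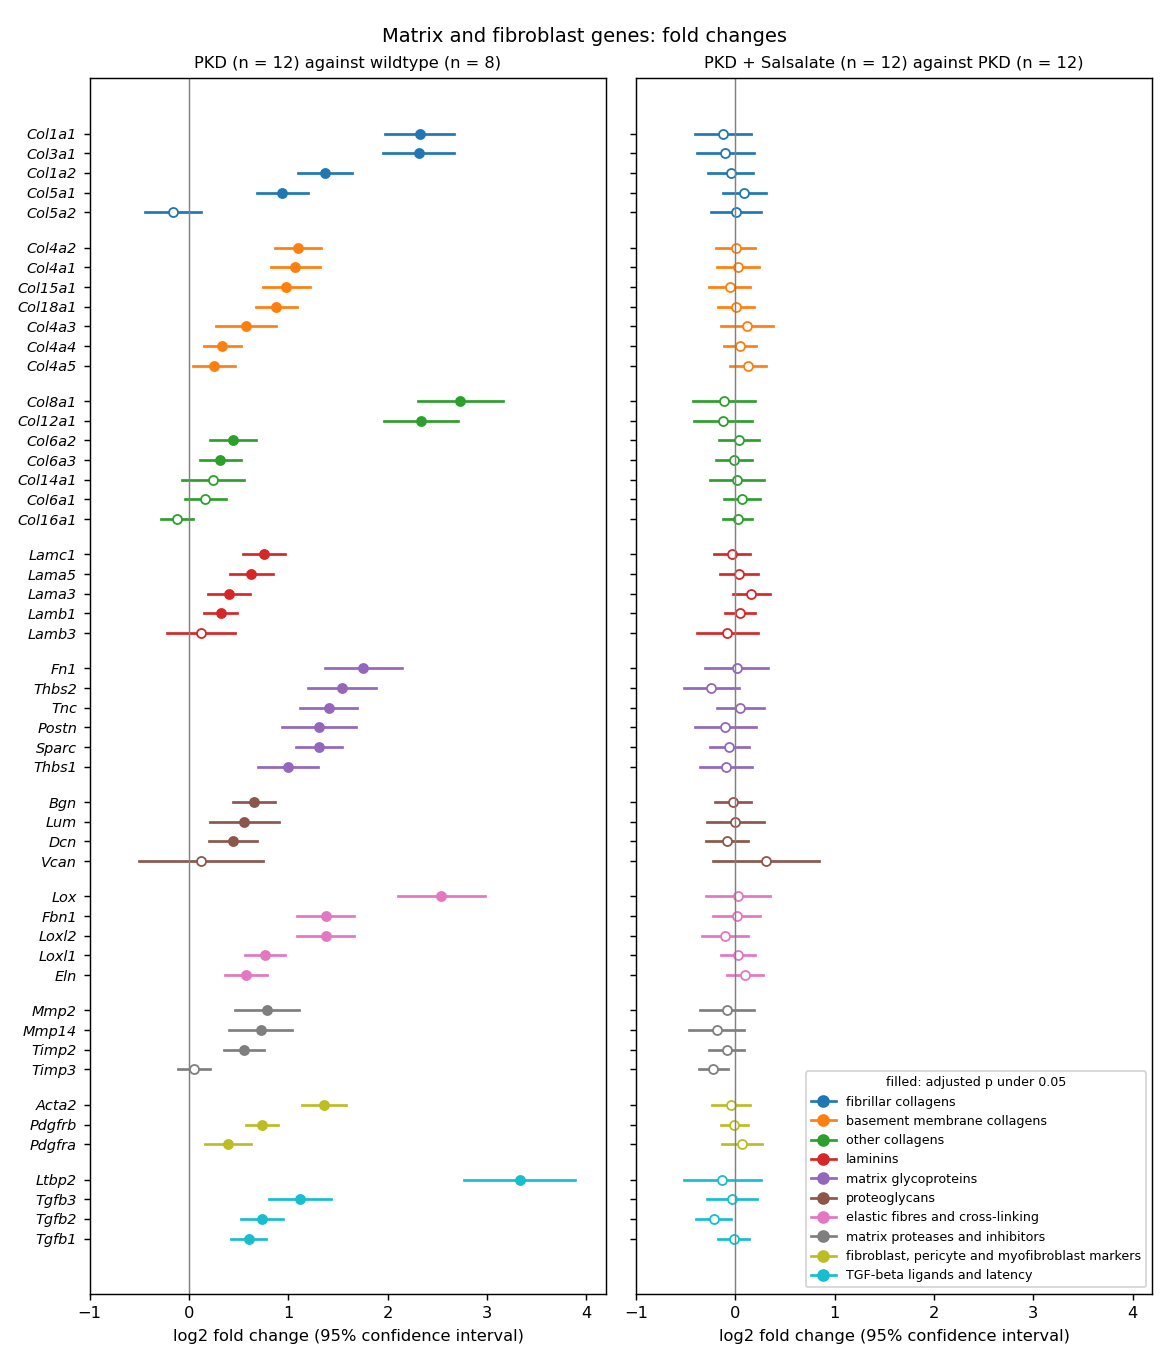
Log2 fold change of the 50 tested members with its 95% confidence interval, grouped by role, in PKD against wildtype (left) and PKD + Salsalate against PKD (right); filled points have an adjusted p under 0.05. On the left 43 points are filled and all of these lie above 0, up to 3.33 for *Ltbp2*; on the right no point is filled.

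Fibrillar collagens form the banded fibres of the interstitium, and 4 of the 5 measured here were higher in PKD kidneys. *Col1a1*, which encodes the alpha 1 chain of type I collagen (chr11:94827050-94843868, GRCm39, plus strand), was counted at 36.8 to 57.1 CPM (median 46.4) in wildtype, 149 to 318 CPM (median 230.5) in PKD and 137 to 413 CPM (median 194) in PKD + Salsalate kidneys. Every kidney of both PKD groups lay above the highest wildtype kidney, and the change in PKD was 5.00-fold (log2 fold change 2.32 ± 0.17 SE, adjusted p = 1.24e-12). *Col3a1*, the only chain of type III collagen, gave 41.7 to 76.7 CPM (median 48.5) in wildtype, 154 to 368 CPM (median 259) in PKD and 162 to 454 CPM (median 228) in PKD + Salsalate kidneys. The groups again did not overlap, with 4.96-fold (log2 fold change 2.31 ± 0.17 SE, adjusted p = 1.93e-12). *Col1a2*, the partner of *Col1a1* in the type I trimer, had a smaller change, 2.58-fold (log2 fold change 1.37 ± 0.13 SE, adjusted p = 4.41e-10), and also did not overlap with wildtype. *Col5a1*, a chain of the type V collagen that starts fibres, was 1.92-fold (log2 fold change 0.94 ± 0.13 SE, adjusted p = 2.12e-07), and its lowest PKD kidney (25.9 CPM) lay below the highest wildtype kidney (28.3 CPM).

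*Col5a2*, the other main chain of type V collagen, was the exception. It was counted at 31.7 to 72.6 CPM (median 54.8) in wildtype, 31.5 to 76.0 CPM (median 45.7) in PKD and 39.0 to 63.2 CPM (median 47.1) in PKD + Salsalate kidneys, so that all 3 groups overlapped, and was not called in PKD (log2 fold change -0.16 ± 0.14 SE, adjusted p = 0.344). Its gene lies next to *Col3a1* on chromosome 1 on the opposite strand, and the ends of the genes are 16713 bases apart. When PKD was compared with the 3 wildtype libraries that are not R-named, *Col5a2* was lower (log2 -0.41, adjusted p = 0.0338), and with the 5 R-named libraries it was not called (log2 0.01, adjusted p = 0.973).

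**Figure D3:**
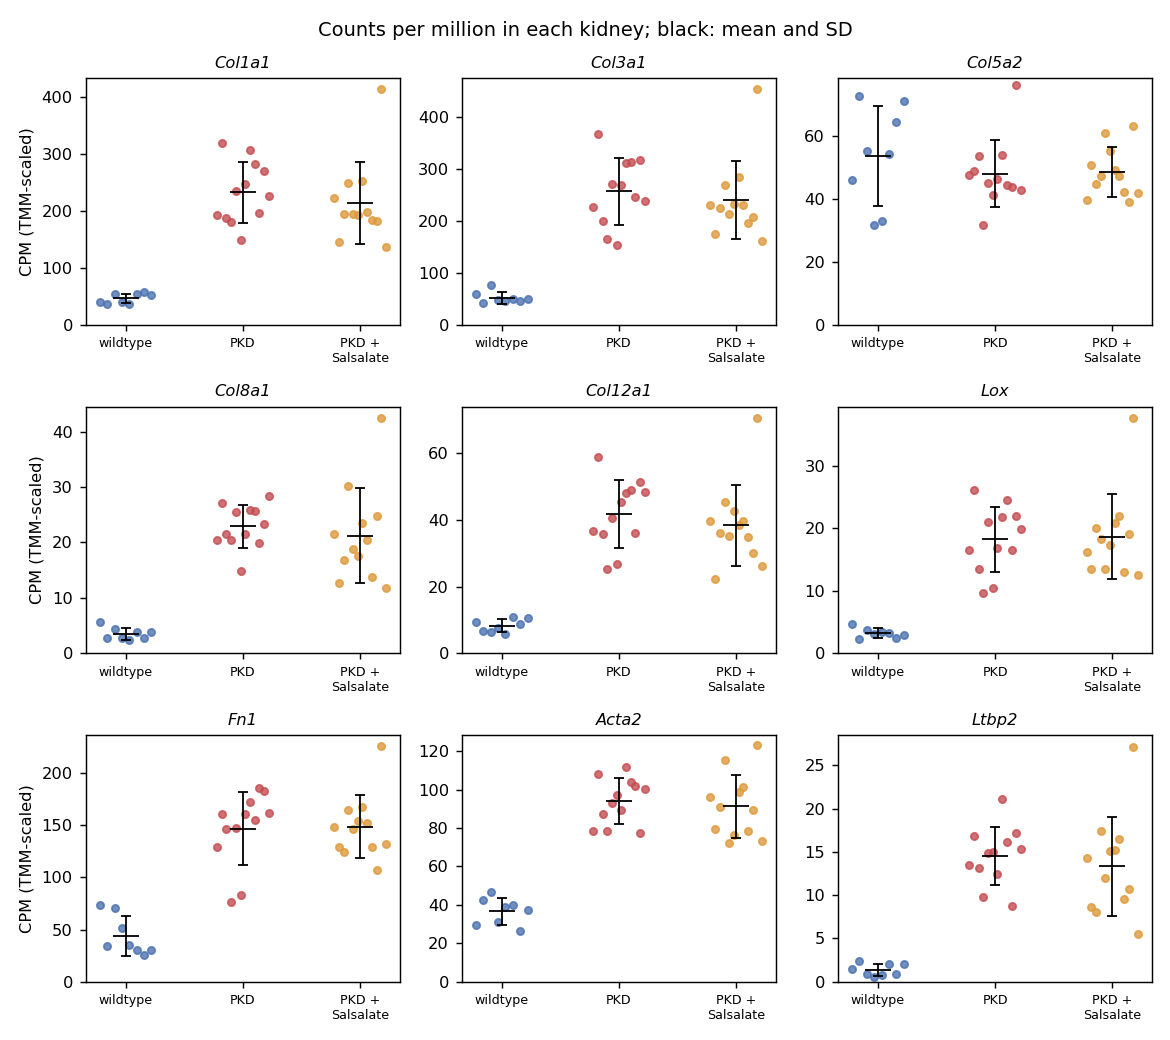
CPM of 9 members in each kidney, with the group mean and SD in black (wildtype n = 8, PKD n = 12, PKD + Salsalate n = 12). In 8 panels the PKD groups lie wholly above wildtype; for *Col5a2* the 3 groups overlap, and 1 PKD + Salsalate kidney (replicate 11) is the highest for most genes.

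The 250 bases before the annotated start of *Col1a1*, *Col3a1* and *Col5a2* are given because the first 2 of these genes changed by nearly the same fold while *Col5a2* did not follow. They were read from the GRCm39 genome on the strand of the gene. Capitals mark every match to 3 motifs. The CCAAT box was searched on both strands, and a match on the other strand reads ATTGG here. The GC box was searched as GGGCGG on both strands. The TATA motif was searched as TATAAA on both strands. No matches overlapped.
Col1a1 (chr11:94826800-94827049, plus strand): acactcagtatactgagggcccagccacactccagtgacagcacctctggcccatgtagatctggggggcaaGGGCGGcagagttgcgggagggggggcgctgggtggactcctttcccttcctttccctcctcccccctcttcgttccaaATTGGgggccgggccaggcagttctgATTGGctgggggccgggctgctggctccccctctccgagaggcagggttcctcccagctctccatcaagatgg
Col3a1 (chr1:45350448-45350697, plus strand): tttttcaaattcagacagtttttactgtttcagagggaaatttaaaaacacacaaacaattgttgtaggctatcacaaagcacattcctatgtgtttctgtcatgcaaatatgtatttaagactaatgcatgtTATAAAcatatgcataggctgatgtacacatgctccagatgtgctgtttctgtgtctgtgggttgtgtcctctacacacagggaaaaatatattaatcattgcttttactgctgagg
Col5a2 (chr1:45542443-45542692, minus strand): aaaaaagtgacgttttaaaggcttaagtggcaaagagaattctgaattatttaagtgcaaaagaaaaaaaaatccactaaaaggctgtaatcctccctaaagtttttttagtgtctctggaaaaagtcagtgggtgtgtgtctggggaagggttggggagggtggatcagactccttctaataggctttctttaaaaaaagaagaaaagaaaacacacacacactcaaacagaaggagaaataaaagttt
The *Col1a1* window held 2 CCAAT boxes on the minus strand, 99 to 95 and 73 to 69 bases before the start, and 1 GC box 178 to 173 bases before it. The *Col3a1* window held only a TATA motif, 117 to 112 bases before the start, and in the *Col5a2* window no match was found. Of 21626 promoter windows of this length, 36.5% held a CCAAT box, 36.4% a GC box and 11.9% a TATA motif. The matches are a description of the sequence, and binding was not measured.

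Basement membrane collagens were higher in PKD kidneys for 7 of 7 members, each by less than *Col1a1*, *Col3a1* and *Col1a2*. *Col4a1* and *Col4a2*, the chains of the network found in all basement membranes, share a start region on chromosome 8, where they run in opposite directions. *Col4a1* was counted at 186 to 303 CPM (median 221) in wildtype, 321 to 599.9 CPM (median 508) in PKD and 399.9 to 762 CPM (median 509) in PKD + Salsalate kidneys, and the PKD groups did not overlap with wildtype. The change was 2.10-fold (log2 fold change 1.07 ± 0.12 SE, adjusted p = 1.02e-08). For *Col4a2* it was 2.14-fold (log2 fold change 1.09 ± 0.11 SE, adjusted p = 1.54e-09). *Col18a1*, whose end is released as endostatin, was 1.84-fold (log2 fold change 0.88 ± 0.10 SE, adjusted p = 1.89e-08), and *Col15a1*, a related collagen of the outer basement membrane, was 1.97-fold (log2 fold change 0.98 ± 0.12 SE, adjusted p = 2.98e-08); neither overlapped with wildtype in PKD.

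*Col4a3*, *Col4a4* and *Col4a5* form the network that is particular to the glomerular and some tubular basement membranes and is defective in Alport syndrome. They had smaller changes in PKD: 1.49-fold (log2 fold change 0.57 ± 0.15 SE, adjusted p = 0.00171) for *Col4a3*, 1.26-fold (log2 fold change 0.34 ± 0.09 SE, adjusted p = 0.00275) for *Col4a4* and 1.19-fold (log2 fold change 0.25 ± 0.10 SE, adjusted p = 0.0425) for *Col4a5*. These calls rested on 1 set of the wildtype libraries. *Col4a3* was counted at 80.2 to 116 CPM in the 5 R-named wildtype libraries, at 189 to 204 CPM in the 3 others and at 124 to 254 CPM in PKD. The 3 other wildtype libraries thus lay inside the range of the PKD kidneys and well apart from the 5. The fold change of *Col4a3* was 1.04, adjusted p = 1.05e-08 on the log2 scale against the 5 and 0.02, adjusted p = 0.916 against the 3. *Col4a4* gave 0.59, adjusted p = 6.05e-08 and -0.01, adjusted p = 0.915, and *Col4a5* gave 0.48, adjusted p = 2.66e-04 and -0.06, adjusted p = 0.712. *Col4a1*, which was called against each set, gave 1.01, adjusted p = 7.42e-07 and 1.17, adjusted p = 3.90e-06. The call for *Col4a5* was also lost with any 1 of 15 of the 32 kidneys left out.

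**Figure D4:**
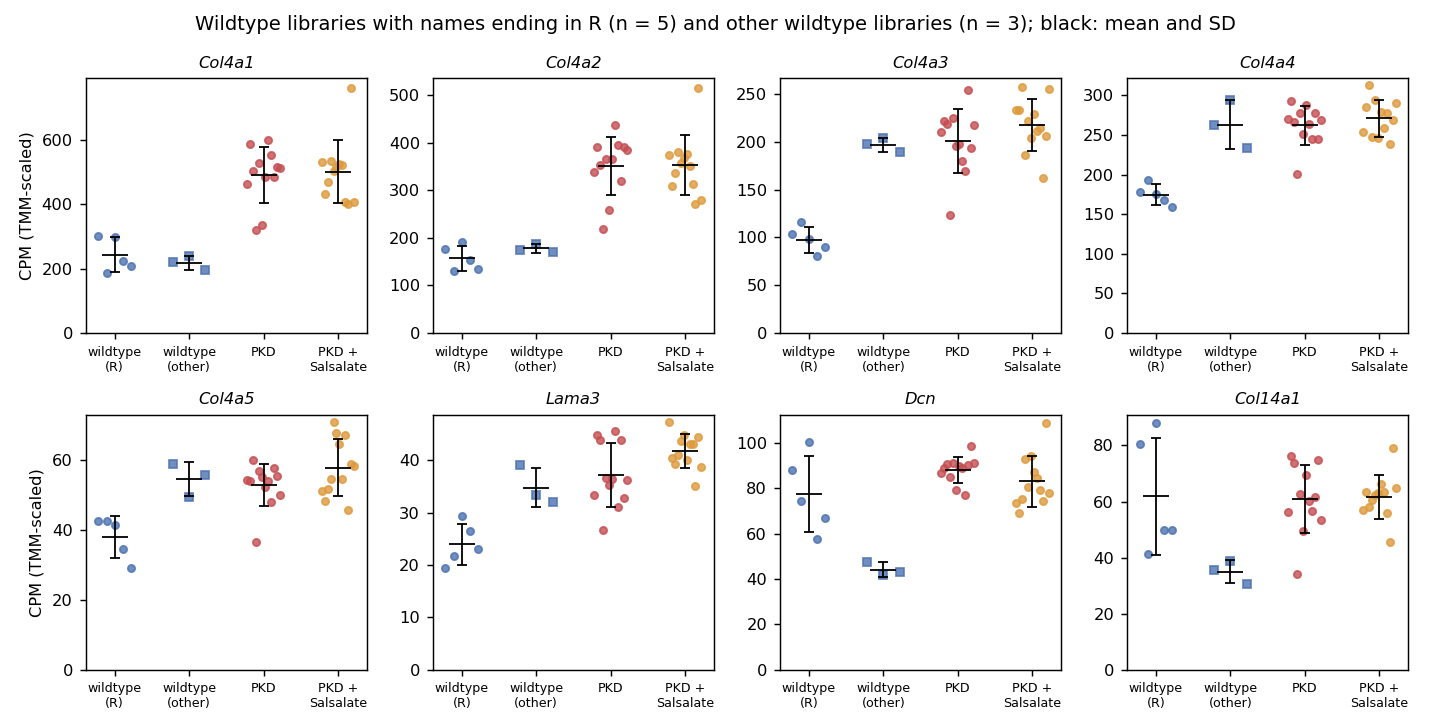
CPM in each kidney for the 5 type IV collagen chains, *Lama3*, *Dcn* and *Col14a1*, with R-named wildtype libraries (circles, n = 5) drawn apart from the other wildtype libraries (squares, n = 3); black marks are means and SD. For *Col4a1* and *Col4a2* both wildtype sets lie below PKD, for *Col4a3* and *Col4a4* only the R-named set does, for *Col4a5* the R-named set reaches into the lower part of the PKD range, and for *Dcn* and *Col14a1* the other set is lower.

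Among the other collagens, 2 changed strongly in PKD and the rest little. *Col8a1*, a short-chain collagen of vessel walls (chr16:57444621-57575100), was counted at 2.35 to 5.57 CPM (median 3.27) in wildtype, 14.9 to 28.4 CPM (median 22.5) in PKD and 11.7 to 42.5 CPM (median 19.7) in PKD + Salsalate kidneys, without overlap between wildtype and PKD groups. Its change was 6.63-fold (log2 fold change 2.73 ± 0.21 SE, adjusted p = 2.82e-12). *Col12a1*, which sits on the surface of type I fibres, gave 5.68 to 10.7 CPM (median 8.18) in wildtype, 25.1 to 58.7 CPM (median 42.9) in PKD and 22.4 to 70.6 CPM (median 37.3) in PKD + Salsalate kidneys and 5.05-fold (log2 fold change 2.33 ± 0.18 SE, adjusted p = 4.78e-12), also without overlap. *Col6a2* and *Col6a3*, chains of the beaded filaments of type VI collagen, were 1.36-fold (log2 fold change 0.44 ± 0.11 SE, adjusted p = 0.00192) and 1.24-fold (log2 fold change 0.31 ± 0.10 SE, adjusted p = 0.0110). The remaining chains were not called: *Col6a1*, the third of these type VI chains (log2 fold change 0.16 ± 0.10 SE, adjusted p = 0.189), the fibre-associated *Col14a1* (log2 fold change 0.24 ± 0.15 SE, adjusted p = 0.195) and *Col16a1* (log2 fold change -0.12 ± 0.08 SE, adjusted p = 0.211). With only the 3 wildtype libraries that are not R-named, *Col14a1* was higher (log2 0.79, adjusted p = 2.00e-04) and *Col6a3* was not called (log2 0.31, adjusted p = 0.0969).

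Laminins, the cross-shaped trimers of the basement membrane, were higher in PKD for 4 of 5 members, and the wildtype and PKD groups overlapped for all 5. *Lama5*, the alpha chain of the main laminins of mature tubules and glomeruli, was counted at 206 to 294 CPM (median 251) in wildtype, 285 to 441 CPM (median 404) in PKD and 274 to 477 CPM (median 412) in PKD + Salsalate kidneys. The change was 1.54-fold (log2 fold change 0.63 ± 0.11 SE, adjusted p = 1.22e-05). *Lamc1*, the gamma chain of most laminins, had the largest change of these genes, 1.69-fold (log2 fold change 0.76 ± 0.10 SE, adjusted p = 3.79e-07). *Lamb1* was 1.25-fold (log2 fold change 0.32 ± 0.08 SE, adjusted p = 0.00192), and *Lama3*, the alpha chain of laminin-332, was 1.32-fold (log2 fold change 0.40 ± 0.10 SE, adjusted p = 0.00169). *Lamb3*, the beta chain of the same laminin-332, was not called (log2 fold change 0.12 ± 0.17 SE, adjusted p = 0.578). Neither *Lama3* (log2 0.09, adjusted p = 0.548) nor *Lamb1* (log2 0.19, adjusted p = 0.170) was called against the 3 wildtype libraries that are not R-named.

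Matrix glycoproteins were higher in PKD for 6 of 6 members, in each wildtype set. *Fn1*, fibronectin, which cells assemble into fibrils before collagen is laid down, was counted at 25.2 to 73.3 CPM (median 34.4) in wildtype, 76.1 to 185 CPM (median 158) in PKD and 107 to 226 CPM (median 147) in PKD + Salsalate kidneys. The lowest PKD kidney (76.1 CPM) lay just above the highest wildtype kidney (73.3 CPM), and the change was 3.37-fold (log2 fold change 1.75 ± 0.19 SE, adjusted p = 3.80e-09). *Tnc*, tenascin-C, a protein of healing and growing tissue, was 2.65-fold (log2 fold change 1.40 ± 0.14 SE, adjusted p = 8.65e-10), and *Postn*, periostin, a product of activated fibroblasts, was 2.48-fold (log2 fold change 1.31 ± 0.18 SE, adjusted p = 5.18e-07). *Sparc* rose from a high level: it gave 183 to 322 CPM (median 272) in wildtype, 502 to 759 CPM (median 616) in PKD and 451 to 888 CPM (median 594) in PKD + Salsalate kidneys, with 2.48-fold (log2 fold change 1.31 ± 0.11 SE, adjusted p = 2.82e-11). The thrombospondins, which bind matrix, were higher by 2.91-fold (log2 fold change 1.54 ± 0.17 SE, adjusted p = 5.00e-09) for *Thbs2* and 2.00-fold (log2 fold change 1.00 ± 0.15 SE, adjusted p = 1.42e-06) for *Thbs1*. Of the 6 genes *Thbs1* alone overlapped between wildtype and PKD.

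The small leucine-rich proteoglycans, which coat collagen fibres, were higher in PKD by less than 2-fold. *Bgn*, biglycan, was 1.57-fold (log2 fold change 0.65 ± 0.10 SE, adjusted p = 3.56e-06), *Lum*, lumican, was 1.47-fold (log2 fold change 0.56 ± 0.17 SE, adjusted p = 0.00782) and *Dcn*, decorin, was 1.36-fold (log2 fold change 0.44 ± 0.12 SE, adjusted p = 0.00236), and all 3 overlapped with wildtype. *Dcn* was counted at 57.5 to 100.4 CPM in the 5 R-named wildtype libraries, 41.7 to 47.6 CPM in the 3 others and 77.0 to 98.7 CPM in PKD. On the log2 scale its change was 0.19, adjusted p = 0.0949 against the 5 and 0.99, adjusted p = 1.68e-08 against the 3, the opposite order to *Col4a3*. *Lum* was not called against the 5 either (log2 0.40, adjusted p = 0.0967). *Vcan* was counted at 0.632 to 7.83 CPM (median 1.84) in wildtype, 1.56 to 4.59 CPM (median 2.69) in PKD and 2.17 to 6.40 CPM (median 3.39) in PKD + Salsalate kidneys and was not called (log2 fold change 0.12 ± 0.31 SE, adjusted p = 0.771).

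Genes of the elastic fibres and of cross-linking were higher in PKD for 5 of 5 members, in each wildtype set. *Lox*, lysyl oxidase, which oxidizes lysines of collagen and elastin so that they can cross-link, was counted at 2.21 to 4.72 CPM (median 3.17) in wildtype, 9.65 to 26.1 CPM (median 18.4) in PKD and 12.5 to 37.6 CPM (median 17.8) in PKD + Salsalate kidneys. Wildtype and PKD kidneys did not overlap, and the change was 5.81-fold (log2 fold change 2.54 ± 0.22 SE, adjusted p = 2.22e-11). Its relatives *Loxl2* and *Loxl1* were 2.59-fold (log2 fold change 1.37 ± 0.14 SE, adjusted p = 9.73e-10) and 1.70-fold (log2 fold change 0.77 ± 0.10 SE, adjusted p = 1.32e-07), also without overlap. *Fbn1*, fibrillin-1, the protein of the microfibrils on which elastin is laid, was 2.59-fold (log2 fold change 1.38 ± 0.14 SE, adjusted p = 1.09e-09). *Eln*, elastin itself, was 1.49-fold (log2 fold change 0.57 ± 0.10 SE, adjusted p = 3.29e-05), and its groups overlapped.

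Of the proteases and inhibitors, *Mmp2* and *Mmp14*, a gelatinase and the membrane protease that activates it, were 1.72-fold (log2 fold change 0.78 ± 0.16 SE, adjusted p = 1.20e-04) and 1.65-fold (log2 fold change 0.72 ± 0.16 SE, adjusted p = 3.22e-04). *Timp2*, the inhibitor that takes part in this activation, was 1.47-fold (log2 fold change 0.55 ± 0.10 SE, adjusted p = 2.23e-05). Each of these genes overlapped between wildtype and PKD. *Mmp14* was counted at 31.6 to 44.7 CPM in the 5 R-named wildtype libraries, 16.7 to 21.4 CPM in the 3 others and 41.7 to 66.4 CPM in PKD. It was called higher in PKD against each set. *Timp3* was not called in PKD against wildtype: it gave 1526 to 2037 CPM (median 1716) in wildtype, 1541 to 2404 CPM (median 1829.8) in PKD and 1294 to 1911 CPM (median 1531) in PKD + Salsalate kidneys, with log2 fold change 0.05 ± 0.08 SE, adjusted p = 0.605. *Mmp7*, matrilysin, an epithelial protease, did not pass the filter on low counts. It was counted at 0 to 3 counts per wildtype kidney (9 in all 8), 5 to 34 per PKD kidney (189 in all 12) and 2 to 30 per PKD + Salsalate kidney (119 in all 12). In CPM these were 0 to 0.283 CPM (median 0.0316) in wildtype, 0.464 to 1.13 CPM (median 0.617) in PKD and 0.0954 to 0.905 CPM (median 0.272) in PKD + Salsalate kidneys, so every PKD kidney lay above every wildtype kidney. In a fit without the filter it was higher in PKD (adjusted p = 4.52e-06). At so few wildtype counts the fitted fold depends on the model's prior count, and none is given.

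The cell markers among the members also rose. *Acta2*, smooth muscle actin alpha, which marks myofibroblasts and vascular smooth muscle, was counted at 26.4 to 46.7 CPM (median 38.3) in wildtype, 77.5 to 112 CPM (median 95.1) in PKD and 72.2 to 123 CPM (median 90.2) in PKD + Salsalate kidneys. No PKD kidney overlapped with wildtype, and the change was 2.57-fold (log2 fold change 1.36 ± 0.11 SE, adjusted p = 6.64e-12). *Pdgfrb*, the PDGF receptor of pericytes and fibroblasts, was 1.66-fold (log2 fold change 0.73 ± 0.08 SE, adjusted p = 3.29e-09), also without overlap. *Pdgfra*, the PDGF receptor of interstitial fibroblasts, was 1.31-fold (log2 fold change 0.39 ± 0.11 SE, adjusted p = 0.00455), with overlap, and was not called against the 3 wildtype libraries that are not R-named (log2 0.31, adjusted p = 0.0977). In whole kidneys, more cells of a type and more RNA per cell cannot be told apart.

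All 3 TGF-beta ligands were higher in PKD kidneys. *Tgfb1*, the ligand best known in fibrosis, was counted at 25.2 to 36.6 CPM (median 28.5) in wildtype, 35.3 to 53.8 CPM (median 44.2) in PKD and 36.5 to 55.6 CPM (median 41.1) in PKD + Salsalate kidneys, with 1.52-fold (log2 fold change 0.60 ± 0.09 SE, adjusted p = 7.35e-07). *Tgfb2* was 1.66-fold (log2 fold change 0.73 ± 0.10 SE, adjusted p = 6.64e-07), and *Tgfb3*, whose PKD kidneys did not overlap with wildtype, was 2.17-fold (log2 fold change 1.12 ± 0.15 SE, adjusted p = 3.45e-07). *Ltbp2*, a microfibril protein of the latent TGF-beta binding family (chr12:84829986-84923306), had the largest fold change of the tested members. It was counted at 0.519 to 2.40 CPM (median 1.15) in wildtype, 8.72 to 21.2 CPM (median 14.9) in PKD and 5.55 to 27.1 CPM (median 13.1) in PKD + Salsalate kidneys. Even the lowest PKD kidney (8.72 CPM) was above 3 times the highest wildtype kidney (2.40 CPM), and the change was 10.0-fold (log2 fold change 3.33 ± 0.28 SE, adjusted p = 1.28e-11). *Ltbp2* passed the filter on low counts through the kidneys of the PKD groups. Its wildtype level rests on few counts (7 in the lowest kidney), so the size of the fold is imprecise.

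Over both sets of wildtype libraries, 34 of the 43 members that were higher in PKD were higher against each set. Against the 5 R-named libraries, 41 of 50 members were higher and 0 lower, where 30.7% of all genes were higher. Against the 3 others, 37 were higher and 1 (*Col5a2*) was lower, where 20.9% of all genes were higher. The calls lost against the 5 were *Lum* and *Dcn*, and those lost against the 3 were *Col4a3*, *Col4a4*, *Col4a5*, *Col6a3*, *Lama3*, *Lamb1* and *Pdgfra*. The wildtype sets also differed in marker sums and in their libraries. The summed CPM of 10 fibroblast markers that are not members was 45.6 to 58.0 in the 5 and 37.7 to 44.7 in the 3. That of 10 proximal tubule markers was 15528 to 28682 in the 5 and 27602 to 31715 in the 3. Of the alignments, 73.6% to 76.4% were on genes in the 5 and 80.9% to 83.1% in the 3. Counts on genes were 11278382 to 16473782 in the 5 and 17011675 to 28290874 in the 3. The part of these differences in the members' values was not tested.

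After 2 weeks of salsalate, no tested member passed the threshold against untreated PKD kidneys. Log2 fold changes in PKD + Salsalate against PKD lay between -0.24 (*Thbs2*) and 0.31 (*Vcan*), with a median of -0.01. Of the 50, 26 lay below 0, where 54.0% of all genes did. For 49 of the 50 members the 95% interval of the fold change lay within 1.5-fold in either direction, and the exception was *Vcan* (log2 fold change 0.31, interval -0.23 to 0.85). A change of *Col1a1* (log2 fold change -0.12, interval -0.40 to 0.16), *Col3a1* (log2 fold change -0.10, interval -0.38 to 0.19), *Fn1* (log2 fold change 0.01, interval -0.31 to 0.33) or *Acta2* (log2 fold change -0.04, interval -0.23 to 0.15) was not detectable. At an unadjusted p under 0.05, 2 members were lower and 0 higher, where 10.3% of all genes passed in either direction. These were *Timp3*, with log2 fold change -0.22 ± 0.07 SE, adjusted p = 0.155 and an unadjusted p of 0.00360, and *Tgfb2*, with log2 fold change -0.22 ± 0.09 SE, adjusted p = 0.322 and an unadjusted p of 0.0186. Neither was called after adjustment, and both overlapped between the groups. *Mmp7*, from the fit without the filter, was lower with an unadjusted p of 0.0129 (adjusted p = 0.436).

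PKD + Salsalate replicate 11 was the highest of its 12 kidneys for 41 of the 51 members. It was also the highest of its group for the summed markers of injured tubules (3804 CPM), macrophages (610.2 CPM), fibroblasts (84.6 CPM) and smooth muscle and pericytes (423 CPM). The same held for endothelial cells (804 CPM) and hepatocytes (259 CPM). For markers of adipocytes, collecting duct, podocytes, proximal tubule and urothelium another kidney was the highest. Without this kidney, 38 of the 50 log2 fold changes were below 0 and 12 above, with a median of -0.07, and 0 were called. In the PKD group, replicate 4 was the lowest kidney for 29 members, and replicates 2 and 8 were the highest for 18 and 16. The library of PKD replicate 4 also had the fewest counts on genes of all kidneys (11193136). Of its alignments, 74.1% were on genes, against 77.9% to 82.9% in the other PKD libraries. The part of library quality in its low values was not tested. Without PKD replicate 4 the median log2 fold change was -0.04, with 37 of 50 below 0 and 0 called. Without PKD replicate 10, the kidney with hepatocyte transcripts, the median was -0.01, with 27 of 50 below 0 and 0 called. The share of all genes below 0 in these fits is not given. Several members varied together across kidneys (below), so these counts are not of independent signs.

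In PKD + Salsalate against wildtype, which shares the wildtype kidneys with the first comparison, 43 of 50 members were higher and 0 lower, where 21.8% of all genes were higher and 44.9% were called in either direction. Of these 43 members, 34 were higher against each wildtype set. The calls lost against the 5 R-named libraries were *Lum*, *Dcn* and *Mmp14*. Those lost against the 3 others were *Col4a3*, *Col4a4*, *Col4a5*, *Col6a3*, *Lama3* and *Lamb1*. For 24 members the groups did not overlap, against 4.46% of all genes that were higher without overlap. *Col1a1* was 4.60-fold (log2 fold change 2.20), *Ltbp2* 9.18-fold (log2 fold change 3.20), *Lox* 5.92-fold (log2 fold change 2.57) and *Acta2* 2.49-fold (log2 fold change 1.32). The same 7 members as in PKD against wildtype were not called, *Timp3* (log2 fold change -0.17 ± 0.08 SE, adjusted p = 0.0785) and *Col6a1* (log2 fold change 0.23 ± 0.10 SE, adjusted p = 0.0635) being the closest to the threshold.

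The balance between members was compared as the log2 ratio of CPM within each kidney, for 3 pairs in 3 comparisons, with exact permutation tests against wildtype, permutation tests with 100000 resamples between the PKD groups, all 2-sided, and p-values adjusted over the 9 tests. *Col1a1* to *Col3a1* had a log2 ratio of -0.16 ± 0.30 (SD, n = 8) in wildtype, -0.14 ± 0.12 in PKD and -0.18 ± 0.07 in PKD + Salsalate (SD, n = 12 each). The difference between PKD and wildtype was 0.02 (exact permutation test, adjusted p = 0.837), while both genes rose. For this pair the difference was 0.21 against the 5 R-named wildtype libraries (exact permutation test, adjusted p = 0.0766). Against the 3 others it was -0.29 (exact permutation test, adjusted p = 0.0237), so the wildtype sets gave opposite signs. *Col4a1* to *Col4a3* was 0.87 ± 0.67 in wildtype, 1.29 ± 0.28 in PKD and 1.19 ± 0.33 in PKD + Salsalate. PKD exceeded wildtype by 0.42 (exact permutation test, adjusted p = 0.338). Against the 5 R-named wildtype libraries this difference was -0.02 (exact permutation test, adjusted p = 0.944) and against the 3 others 1.15 (exact permutation test, adjusted p = 0.0132). *Tgfb2* to *Tgfb1* was -3.15 ± 0.35 in wildtype, -3.03 ± 0.16 in PKD and -3.22 ± 0.20 in PKD + Salsalate. It was lower by a log2 difference of -0.19 with salsalate (permutation test, p = 0.0174), which did not pass after adjustment (p = 0.156). The adjustment depends on the other 8 tests: in the 9 tests made with the 3 wildtype libraries that are not R-named, the adjusted permutation p of this same difference was 0.0261, and with the 5 R-named libraries it was 0.0766.

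Across the kidneys of 1 group, the pairs *Col1a1* with *Col3a1*, *Col4a1* with *Col4a2* and *Col4a3* with *Col4a4* moved together. Pearson's r and Spearman's rho of log2(CPM + 0.5) were computed for 6 pairs in each PKD group, with 100000 permutations and p-values adjusted over the 12 relations. *Col1a1* and *Col3a1* gave r = 0.95 and rho = 0.96 in the 12 PKD kidneys (adjusted permutation p = 4.0e-05 and 1.2e-04), and r = 0.99 and rho = 0.92 in the 12 PKD + Salsalate kidneys (adjusted permutation p = 4.0e-05 and 1.8e-04). Without the 2 kidneys farthest from the median of *Col1a1*, r was 0.91 and 0.95. *Col4a1* and *Col4a2* gave r = 0.96 and rho = 0.94 in PKD and r = 0.98 and rho = 0.97 in PKD + Salsalate, and 0.83 and 0.95 without the 2 farthest kidneys. *Col4a3* and *Col4a4* gave r = 0.88 and 0.81, rho = 0.81 and 0.79, and 0.65 and 0.67 without the 2 farthest. All 6 of these relations had an adjusted permutation p of at most 0.00494.

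The other pairs were less uniform. *Col4a1* and *Col4a3*, of the 2 type IV networks, gave r = 0.49 and rho = 0.07 in PKD (adjusted permutation p = 0.137 and 0.835), and r = -0.06 and rho = -0.17 in PKD + Salsalate (0.850 and 0.641). In PKD this r rested on 2 kidneys, replicates 4 and 6, without which it was -0.43. *Col1a1* and *Acta2* gave r = 0.43 and rho = 0.52 in PKD (adjusted permutation p = 0.181 and 0.119) and r = 0.82 and rho = 0.76 in PKD + Salsalate (0.00104 and 0.00925), with 0.50 and 0.67 without the 2 farthest kidneys. *Col1a1* and *Tgfb1* gave r = 0.62 and rho = 0.47 in PKD (adjusted permutation p = 0.0413 and 0.151) and r = 0.82 and rho = 0.87 in PKD + Salsalate (6.96e-04 and 0.00108), with 0.71 and 0.69 without the 2 farthest kidneys. Whether the groups differ in these relations was not tested.

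**Figure D5:**
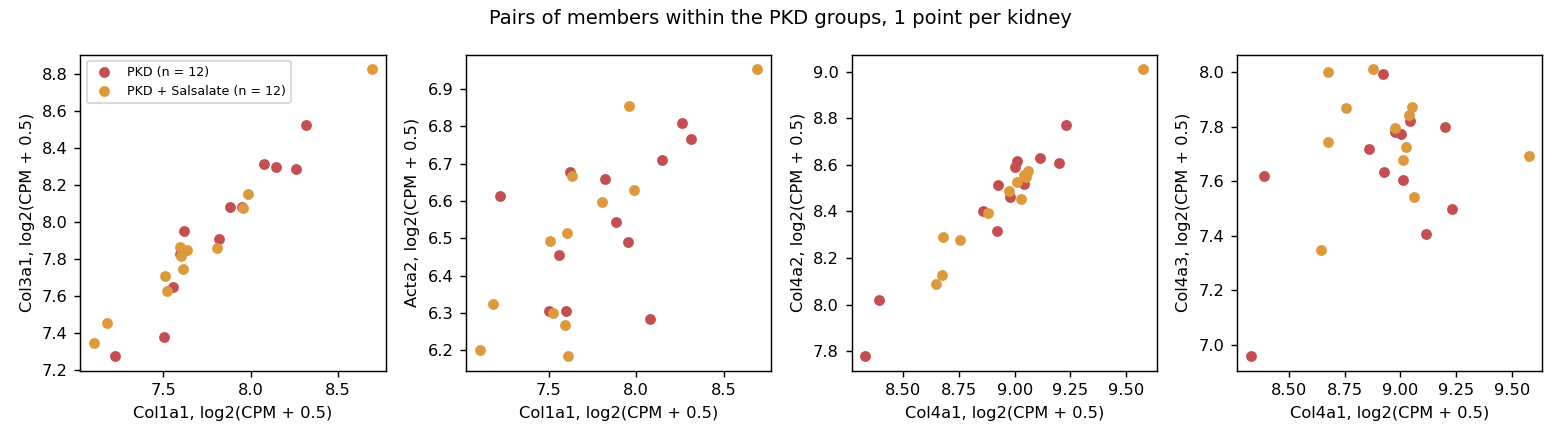
CPM of 4 pairs of members on a log2(CPM + 0.5) scale, 1 point per kidney, in PKD (n = 12) and PKD + Salsalate (n = 12). *Col1a1* with *Col3a1* and *Col4a1* with *Col4a2* lie close to a line in both groups, *Col1a1* with *Acta2* is looser, and *Col4a1* with *Col4a3* shows no line.

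Other genes of the matrix were read from 6 lists. Their counts in PKD against wildtype stand beside 24.1% higher and 25.0% lower among all genes tested. Of 23 genes of collagen synthesis and processing, 21 were tested, 15 were higher and 2 lower in PKD. The largest rises were *Adamts2*, which trims the end of procollagen (7.18 ± 1.24 CPM in wildtype, 21.0 ± 3.16 CPM in PKD, log2 fold change 1.55), and *Serpinh1*, the collagen chaperone HSP47 (70.2 ± 14.3 CPM in wildtype, 163 ± 23.5 CPM in PKD, log2 fold change 1.21). The falls were *Ppib* (263 ± 40.7 CPM in wildtype, 205 ± 12.2 CPM in PKD, log2 fold change -0.36) and *Pcolce2* (3.82 ± 0.926 CPM in wildtype, 2.97 ± 0.466 CPM in PKD, log2 fold change -0.34), neither of which was called against the 3 wildtype libraries that are not R-named. Of 15 other laminins and basement membrane genes, 11 were higher, led by *Fras1* (30.6 ± 11.9 CPM in wildtype, 63.3 ± 7.52 CPM in PKD, log2 fold change 1.04) and *Frem2* (7.88 ± 3.12 CPM in wildtype, 15.7 ± 2.32 CPM in PKD, log2 fold change 0.98), which tie epithelium to its basement membrane, and *Lamc3* was lower (25.7 ± 4.76 CPM in wildtype, 15.7 ± 3.24 CPM in PKD, log2 fold change -0.70). Of 25 other collagen chains only 12 passed the filter, and among these 2 were higher, *Col24a1* (log2 fold change 0.43) and *Col4a6* (0.41), and 4 lower, led by *Col19a1* (-1.12) and *Col23a1* (-0.75). Against the 3 wildtype libraries that are not R-named, 0 of these chains were higher and 2 were lower, so that *Col24a1* (adjusted p = 0.282) and *Col4a6* (adjusted p = 0.493) lost their calls, as did *Col19a1* (adjusted p = 0.0544) but not *Col23a1*.

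Of 21 receptors, SMADs and response genes of TGF-beta, 20 were tested, 10 were higher and 1 was lower. Among these, *Tgfbi*, a matrix protein induced by TGF-beta, was higher (26.6 ± 5.93 CPM in wildtype, 57.5 ± 7.19 CPM in PKD, log2 fold change 1.12), and *Smad6*, an inhibitory SMAD, was lower (14.0 ± 2.35 CPM in wildtype, 12.0 ± 0.960 CPM in PKD, log2 fold change -0.22). Against the 3 wildtype libraries that are not R-named 6 genes of this list were higher, where 20.9% of all genes were. *Smad6* was not called against the 5 R-named libraries (edgeR, adjusted p = 0.259). Of 17 matrix receptors, 16 were tested and 11 were higher with 0 lower, led by the hyaluronan receptor *Cd44* (3.23 ± 1.08 CPM in wildtype, 12.0 ± 2.37 CPM in PKD, log2 fold change 1.93) and the syndecan *Sdc1* (11.6 ± 3.47 CPM in wildtype, 22.6 ± 4.67 CPM in PKD, log2 fold change 0.95). Of 21 other proteases and inhibitors, 16 were tested and 12 were higher with 0 lower. *Timp1*, the inducible inhibitor, had the largest change of these lists (0.522 ± 0.244 CPM in wildtype, 10.4 ± 2.76 CPM in PKD, log2 fold change 4.41), and *Mmp3*, stromelysin, came next (0.377 ± 0.159 CPM in wildtype, 2.94 ± 0.831 CPM in PKD, log2 fold change 3.05). Both passed the filter on low counts only through the kidneys of the PKD groups. At such low wildtype levels their folds are imprecise, and the filter favours rises over falls among weakly expressed genes. In PKD + Salsalate against PKD 0 genes of the 6 lists were called, where 0.580% of all genes were. In the fits with 1 wildtype set, *Col7a1* (adjusted p = 0.0437 with the 5 R-named libraries and 0.0286 with the 3 others) and *Col11a2* (0.0413 and 0.0251) were called higher, and *Col19a1* lower with the 3 others (0.0493). These 3 are named after their values were seen.

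Markers of some other cells rose with the members in PKD, where 24.1% of all genes tested were higher and 25.0% lower. Of 10 markers of injured tubules, 10 were higher and their sum rose from 371 to 639 CPM in wildtype to 1478 to 2977 CPM in PKD. Of 9 tested macrophage markers, 9 were higher, with sums of 148 to 235 CPM in wildtype and 341 to 543 CPM in PKD. Of 8 tested fibroblast markers that are not members, 3 were higher (*Pdpn*, *Mfap5* and *Thy1*) and 0 lower, with sums of 37.7 to 58.0 CPM and 53.2 to 74.3 CPM. Against the 5 R-named wildtype libraries 3 of these fibroblast markers were higher and 1 lower, and against the 3 others 5 were higher and 0 lower. Of 8 smooth muscle and pericyte markers, 4 were higher (*Tagln*, *Notch3*, *Mcam* and *Cspg4*), with sums of 179 to 291 CPM and 348 to 393 CPM, while *Myh11*, the defining marker of mature smooth muscle, was at 38.5 CPM in wildtype and 35.7 CPM in PKD and was not called. In this list 4 were higher and 1 lower against the 5 R-named libraries, and 5 were higher and 0 lower against the 3 others. Podocyte markers, which include the cells that make the *Col4a3* network, were lower for 8 of 10, with sums of 333 to 482 CPM and 297 to 336 CPM. Against the 5 R-named wildtype libraries 6 podocyte markers were lower and 0 higher, and against the 3 others 5 were lower and 1 higher. Endothelial markers were higher for 3 and lower for 4 of 10, with 3 higher and 5 lower against the 5, and 4 higher and 1 lower against the 3. No defining marker of these lists was at 0 in all kidneys. The part of these cells in the members' rise was not tested.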

How the data were processed

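Poly(A) RNA of 32 mouse kidneys had been sequenced with a directional kit. Per the submitters' processing notes and the study's methods, the authors clipped reads with cutadapt, aligned them with STAR 2.7.5a to GRCm39 and deposited raw read counts per Ensembl gene from HTSeq 0.12.4, counted by strand, without filter or normalization. By default HTSeq leaves out reads that fit several genes or places, so *Lama3* and *Timp2*, whose exons share 420 and 332 bases with another gene on the same strand, may be low. Between 73.6% and 83.1% of the alignments per kidney were counted on genes, and the summary lines for the rest were left out. Symbols and positions came from GENCODE M39, another release than the one counted on.

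The 13961 genes whose log2 CPM exceeded 1 in 25% or more of the kidneys were scaled by TMM, fitted with all 3 groups without covariates and tested 2-sided by the quasi-likelihood method of edgeR 4.0.16 (R 4.3.3), with Benjamini-Hochberg adjustment over all genes tested and a threshold of 0.05. Intervals are 95%. Ratios and correlations used SciPy 1.17.1. The fit was checked on simulated counts. Alternatives were upper-quartile scaling, size factors and, separately, the Wald test from DESeq2 1.42.0, filterByExpr, no filter, only the groups compared, a replicate block, each kidney left out, and each wildtype set alone. All 51 members are named. Of each list of other matrix genes, up to 2 of the largest rises and up to 2 of the largest falls with an adjusted p under 0.05 in PKD against wildtype are named, and of cell markers those that move with a result; 1 gene that this rule names is not reported here. The members and lists were chosen with earlier results of these data known.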

Additional observations from a re-analysis of the deposited data

Results flagged for a closer look

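In the 8 wildtype kidneys, 3 of the 51 members had 1 kidney far from the others, with a gap to the next kidney above Dixon's critical value at the 95% level. Chance gives this in about 1 of 20 groups. *Vcan* was 7.83 CPM in wildtype replicate 1 and 0.632 to 3.62 CPM in the other 7, with the gap taking 0.585 of the whole range. *Mmp2* was 9.96 CPM in wildtype replicate 3 and 5.91 to 7.08 CPM in the others, and *Tgfb1* was 36.6 CPM in wildtype replicate 5 and 25.2 to 30.2 CPM in the others, with gaps of 0.710 and 0.558 of the range. All 3 of these kidneys have R-named libraries. Groups of 12 were not tested in this way.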

How the results depend on the processing

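The count of members higher in PKD against wildtype stayed between 37 and 44 under all alternatives and between 42 and 43 with each kidney left out, and in PKD + Salsalate against wildtype between 38 and 44 and between 43 and 46. In PKD + Salsalate against PKD, 0 members were called under every alternative. Members lower in PKD + Salsalate against wildtype numbered 1 by DESeq2's Wald test (*Timp3*), 0 to 1 with each kidney left out (*Timp3*, adjusted p = 0.0475 without wildtype replicate 1 and 0.0376 without PKD + Salsalate replicate 3, by edgeR) and 2 against the wildtype libraries that are not R-named (*Timp3* and *Col5a2*). Against these 3 libraries, 1 member (*Col5a2*) was lower in PKD, and *Col4a4* and *Col4a5* turned to log2 fold changes of -0.013 and -0.058. The log2 ratio of *Col4a1* to *Col4a3* then differed from wildtype by 1.15 in PKD and 1.05 in PKD + Salsalate, that of *Col1a1* to *Col3a1* by -0.29 and -0.33, and that of *Tgfb2* to *Tgfb1* in PKD by 0.31, all past the threshold. The difference in *Tgfb2* to *Tgfb1* between the PKD groups, whose kidneys are the same in all these settings, also passed there (adjusted permutation p = 0.0261), because the other tests in the adjustment had lower p-values. Only 3 wildtype kidneys enter these values, and the cause was not tested.

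Replicate numbers did not pair the kidneys: over 28 pairs of same-numbered kidneys the correlation of deviations was -0.55 to 0.47. With the replicate block 43 members were higher in each comparison with wildtype, 0 lower, and 0 were called between the PKD groups. *Col4a5* in PKD against wildtype lost its call with DESeq2 size factors, without a filter, with only the groups compared, and with any 1 of 15 kidneys left out (adjusted p 0.0525 to 0.124 by edgeR). Some calls were gained when 1 kidney was left out. *Vcan* was higher in PKD + Salsalate against wildtype without wildtype replicate 1 (edgeR, adjusted p = 0.0177). *Col14a1* was higher in PKD without wildtype replicate 1 (adjusted p = 0.0483) or 3 (adjusted p = 0.0244), and *Col6a1* in PKD + Salsalate without any 1 of 6 kidneys (adjusted p 0.0261 to 0.0482). *Mmp7* was under the filter on low counts.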
